A study of Mus musculus with 10 samples.

Results

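The olfactory receptor genes of mouse chromosome 2 lie in 3 clusters, and the cluster nearest the centromere carried far more H3K4me3 peak coverage than the others in nuclei of hippocampal neurons. The 287 genes described here are all protein-coding RefSeq genes on chromosome 2 whose symbol starts with Olfr, out of 21887 protein-coding genes and out of 1110 Olfr genes on all chromosomes. They were chosen by symbol and chromosome. The family was proposed with earlier results of these data in view, in which regions near olfactory receptor genes were wider in transgenic libraries, so its direction is a description. At each gene the better covered end was selected on the mean peak coverage over all 8 libraries, which did not use the groups. Genes less than 1 Mb apart were joined, which gave a proximal cluster of 28 genes (chr2:36376778-37332732, Olfr338 to Olfr368), a middle cluster of 222 (chr2:85330967-90401674, Olfr987 to Olfr1274) and a distal cluster of 37 (chr2:111230853-112157007, Olfr1275 to Olfr1318). All coordinates are of mm10.

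H3K4me3, the trimethylated form of lysine 4 of histone H3, was profiled by ChIP-seq (sequencing of immunoprecipitated chromatin) in sorted nuclei of the hippocampal area CA1 that carry the neuronal protein NeuN. The transgenic group holds 4 libraries of CamkdeltaC transgenic mice and the control group 4 libraries of their littermates, all aged 3 months and labelled male. The protocol shared by the samples describes drinking water with vorinostat, an inhibitor of histone deacetylases, or with vehicle, and no library used here carries a drug label. The labels give neither the strain nor the promoter of the transgene. The mouse line known by this name expresses CaMKIIδC, a calcium-dependent kinase, in heart muscle and not in neurons. The labels do not say whether each library stands for its own animal, and the p-values given here reflect library-to-library spread, which could be technical. In sorted nuclei, a larger share of nuclei with the mark and more of the mark per nucleus cannot be told apart.

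Olfactory receptors are G protein-coupled receptors that bind odorants on the cilia of olfactory sensory neurons. Each such neuron expresses a single receptor gene from a single allele, while the remaining receptor genes are held in heterochromatin, and the coding sequence of a receptor usually lies in a single exon. H3K4me3 marks active and poised gene starts.

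The libraries differed in ways that the groups do not explain. The deposited lists held 102285, 63921, 60388 and 66560 peaks in the transgenic libraries and 51903, 65600, 66811 and 54597 in the controls, and with no read counts in them the sequencing depth cannot be given. Transgenic libraries 1 and 4 and control libraries 2 and 3 had 13023 to 31362 peaks on the X chromosome, against 1145 to 1293 in the other 4, so each group held 2 libraries of each kind. On the Y chromosome transgenic library 3 and control libraries 1 and 4 had 1024 to 1220 peaks and the other 5 had 4 to 15, although all are labelled male. Over all autosomes the peaks covered 1815 ± 58.9 bp per 100 kb in transgenic and 1564 ± 91 bp in controls (SD, n = 4 each), and the groups did not overlap. The endogenous gene of the kinase, Camk2d, had 1459 ± 212 bp in transgenic libraries and 1442 ± 83.5 bp in controls in the window at its better covered end, which does not test for the transgene.

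The sequence around the annotated starts is shown because the starts themselves proved to be poor in peaks. RefSeq (GRCm38.p6, the build of mm10) gave 300 bases, from 250 before to 50 after the start, for 243 of the 287 genes. The examples are Olfr362, the most covered gene (chr2:37105599-37105898, minus strand), Olfr350, the most covered at its annotated start (chr2:36849798-36850097, plus strand), Olfr347, the proximal gene with the smallest p (chr2:36734073-36734372, plus strand), Olfr1241, the most covered gene of the middle cluster (chr2:89483084-89483383, minus strand) and Olfr1275, the first gene of the nearly bare distal cluster (chr2:111231742-111232041, minus strand). Capitals mark the motifs TAATTA and TAATGA (cores bound by homeodomain factors such as Lhx2), CCCNNGGG (the core of sites for the Ebf factors) and TATAAA (the TATA box), each searched on both strands, so that a motif of the other strand reads as its reverse complement. TAATTA and TAATGA share their first 4 letters, and TAATTA reads the same on both strands. Capitals show matching letters, not sites known to be in use. In Olfr362 the marked TAATGA contains the ATG at the annotated start, and the last marked TTTATA of Olfr1275 lies after its start.
Olfr362: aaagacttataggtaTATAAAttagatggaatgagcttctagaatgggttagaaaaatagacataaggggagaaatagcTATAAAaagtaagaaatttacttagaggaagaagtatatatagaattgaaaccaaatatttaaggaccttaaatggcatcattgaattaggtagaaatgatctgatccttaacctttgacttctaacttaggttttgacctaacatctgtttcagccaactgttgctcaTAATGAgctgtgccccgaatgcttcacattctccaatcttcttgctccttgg
Olfr350: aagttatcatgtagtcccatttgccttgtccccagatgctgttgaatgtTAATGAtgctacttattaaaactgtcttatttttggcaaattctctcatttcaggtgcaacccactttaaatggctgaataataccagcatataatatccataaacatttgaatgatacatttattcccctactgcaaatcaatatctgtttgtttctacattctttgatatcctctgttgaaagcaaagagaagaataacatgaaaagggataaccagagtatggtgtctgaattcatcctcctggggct
Olfr347: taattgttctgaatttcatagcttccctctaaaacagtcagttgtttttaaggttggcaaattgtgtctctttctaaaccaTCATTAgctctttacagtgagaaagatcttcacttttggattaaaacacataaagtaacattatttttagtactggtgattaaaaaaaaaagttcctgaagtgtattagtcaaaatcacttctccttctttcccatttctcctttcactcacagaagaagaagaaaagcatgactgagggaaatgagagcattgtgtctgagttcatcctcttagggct
Olfr1241: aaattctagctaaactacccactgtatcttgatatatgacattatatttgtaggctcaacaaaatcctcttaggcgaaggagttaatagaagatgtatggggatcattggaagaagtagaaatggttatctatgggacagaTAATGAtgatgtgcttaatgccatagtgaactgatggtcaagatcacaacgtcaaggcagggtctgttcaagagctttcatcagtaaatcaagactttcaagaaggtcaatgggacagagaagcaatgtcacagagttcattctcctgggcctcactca
Olfr1275: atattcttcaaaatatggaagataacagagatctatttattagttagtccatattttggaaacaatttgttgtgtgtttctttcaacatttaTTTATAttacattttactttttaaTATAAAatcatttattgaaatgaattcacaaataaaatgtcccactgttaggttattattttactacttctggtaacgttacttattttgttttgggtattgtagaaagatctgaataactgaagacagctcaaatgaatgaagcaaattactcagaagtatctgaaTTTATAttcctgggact

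These windows are rich in A and T and nearly free of CpG. The GC share averaged 36.3% over 27 proximal, 32% over 186 middle and 33.4% over 30 distal genes, against 55.9% over 17492 protein-coding genes. CpG dinucleotides numbered 0.259, 0.353 and 0.378 per 100 bases in the proximal, middle and distal windows, against 5.1 in all windows. In 96.3% of the proximal genes the annotated start was the first base of an ATG, which was so for 9.55% of all genes: the annotated start of such a gene is the start of its coding sequence, not a mapped transcription start. TAATGA was found in 15 proximal windows (55.6%), 52 middle (28%) and 9 distal ones (30%), against 8.65% of all windows. TAATTA was found in 18.5%, 24.7% and 30% of the proximal, middle and distal windows, against 4.68% of all. CCCNNGGG was found in none of the proximal windows, 4 of the middle and 1 of the distal, against 15.3% of all. TATAAA was found in 11.1% of the proximal windows, below the 13.3% of all windows, and in 55.4% of the middle and 46.7% of the distal ones. These are shares of windows with the letters, with no test. The windows include the annotated start and bases after it, so a match can contain the ATG there, as TAATGA does in Olfr362.

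The proximal cluster was covered in every library, and more in the transgenic ones. Peaks covered 23713, 18816, 16377 and 15373 bp per 100 kb of the proximal cluster in the transgenic libraries, against 11578, 12418, 10506 and 12588 bp in the controls. Every transgenic library lay above every control, and the means were 18570 ± 3721 bp in transgenic libraries and 11773 ± 953 bp in controls (SD, n = 4 each), a ratio of 1.58. The flanks of 1 Mb on either side had 2240 ± 114 bp in transgenic libraries and 1986 ± 193 bp in controls, and there the groups overlapped. Relative to all autosomes, the proximal cluster was covered 8.65 to 12.5 times as densely in transgenic libraries and 6.77 to 8.03 times in controls, and these ranges did not overlap either. The ratio was 1.71 among the libraries with many X chromosome peaks and 1.46 among those with few. When each list was cut to the same number of top-ranked peaks, the transgenic mean was 14479 bp and the control mean 10873 bp. The transgenic libraries stayed wholly above the controls in that setting, and the difference shrank to 3606 bp, against 6797 bp with all peaks. Equal numbers of autosomal peaks gave 15471 bp in transgenic libraries and 11212 bp in controls, again without overlap. Whether the larger number of peaks in some transgenic libraries plays a part in the difference was not tested beyond these settings.

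The middle and distal clusters were close to bare. The middle cluster had 356, 1280, 534 and 211 bp per 100 kb in the transgenic libraries, against 232, 200, 265 and 250 bp in the controls. Transgenic library 2 stood apart there, and the groups overlapped. Without it the transgenic mean was 367 bp, against 595 bp with it, and the control mean was 237 bp. The distal cluster had 78.8, 394, 363 and 43.2 bp in the transgenic libraries, against 114, 0, 73.5 and 43.2 bp in the controls, and the groups overlapped again. Within a library the proximal cluster was covered 14.7 to 72.9 times as densely as the middle one in transgenic libraries and 39.7 to 62.1 times in controls. Among the 4 libraries with few X chromosome peaks, 2 in each group, the groups did not overlap in either cluster. The middle one had 907 bp in transgenic libraries and 241 bp in controls. The distal one had 378 bp in transgenic libraries and 78.6 bp in controls. These transgenic libraries were the highest of all 8 in both clusters, at 1280 and 534 bp and at 394 and 363 bp. The split was chosen after seeing the data, and 2 libraries per group cannot tell such a gap from chance. Among the libraries with many X chromosome peaks, the middle cluster had 284 bp in transgenic libraries and 232 bp in controls, with overlap. The distal cluster had 61 bp in transgenic libraries and 36.8 bp in controls there, also with overlap. Without transgenic library 4 the middle groups were apart, with 723 bp in transgenic libraries and 237 bp in controls. That library, at 211 bp, was the only transgenic one below the highest control, 265 bp, so leaving it out parts the groups by construction. With any other library left out the middle groups overlapped. Both sparse clusters were below the autosomal mean in all 8 libraries.

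**Figure D1:**
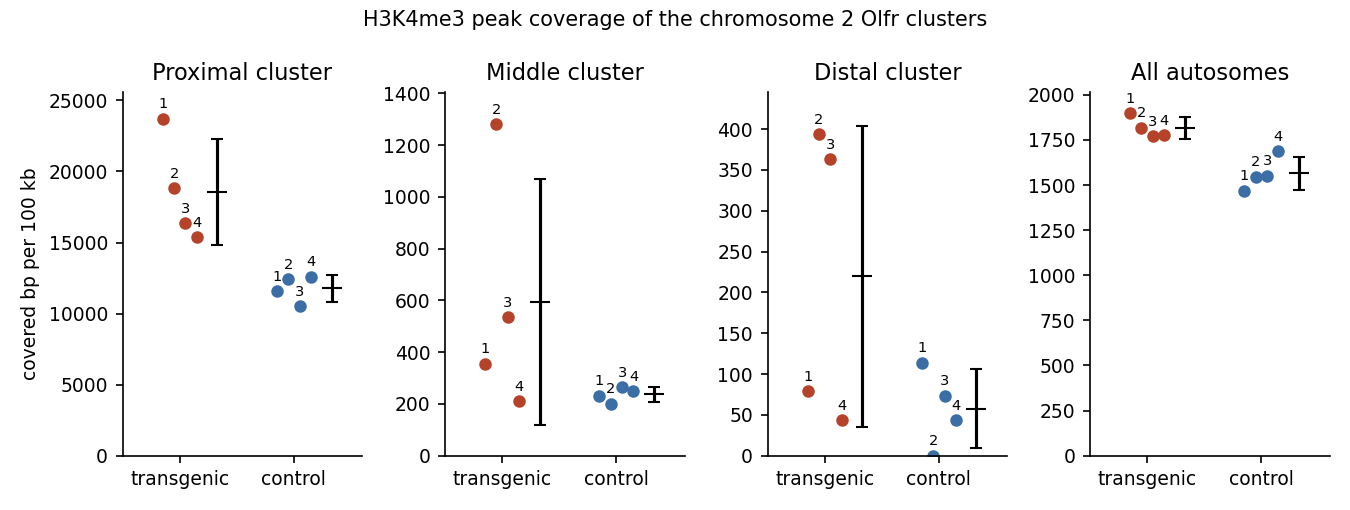
Covered bp per 100 kb (y axis, a separate scale in each panel) in the proximal, middle and distal clusters and over all autosomes. Each numbered point is a library, transgenic left and control right, and bars give the mean and SD of 4. In the proximal cluster the transgenic libraries, 15373 to 23713 bp, lie above all controls, 10506 to 12588 bp, while the groups overlap in the middle and distal clusters.

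The coverage spanned the proximal cluster nearly from end to end. The nearest other protein-coding genes are Ptgs1, a cyclooxygenase gene 118184 bp to the left, and Pdcl, a phosducin-like gene 17341 bp to the right, and no other protein-coding gene lies inside. In steps of 10 kb, 81 of 95 steps inside the cluster had a peak in all 8 libraries, 94 had one in at least 4, and 0 had none. Of its 100-kb bins, the median bin stood at the 98.4th percentile of 24615 autosomal bins by mean coverage. The median bins of the middle and distal clusters stood at the 55.3rd and 50.7th percentiles. In 9 of the 11 proximal bins the transgenic libraries lay wholly above the controls, which was so for 6.25% of the 12133 autosomal bins with a peak in at least 4 libraries.

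**Figure D2:**
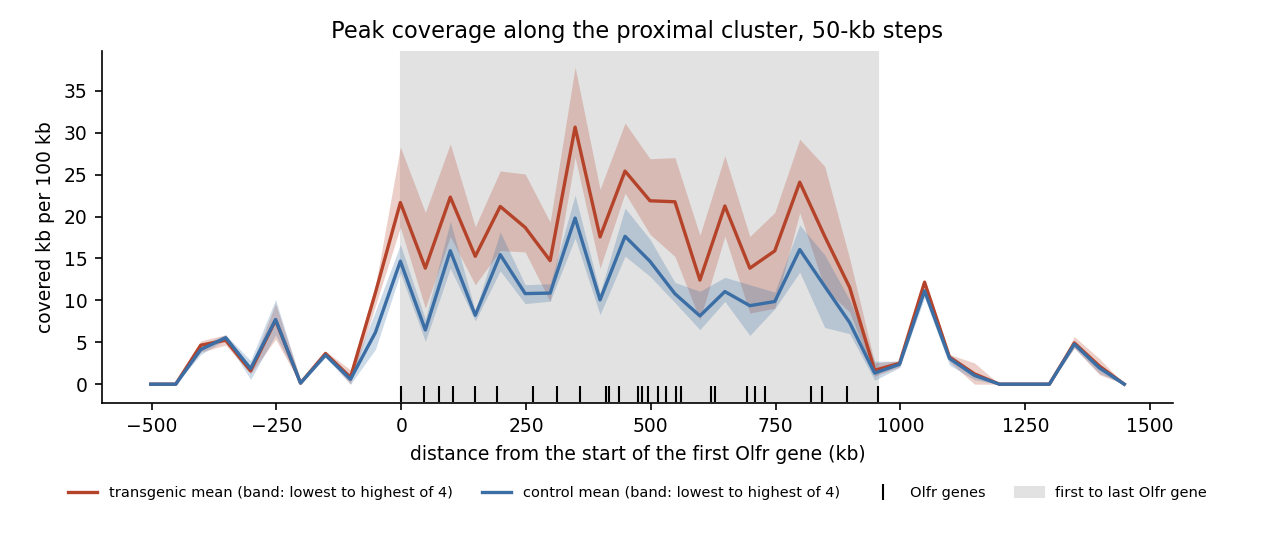
Covered kb per 100 kb (y axis) in 50-kb steps against the distance in kb from the start of the first Olfr gene (x axis). Lines are group means, bands run from the lowest to the highest of 4 libraries, grey marks the 956 kb from the first to the last Olfr gene, and ticks mark the genes. Inside the grey span the transgenic line lies above the control line throughout, and outside it the lines come together beyond the step before the first gene.

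No bin passed the test on its own. limma was run on log2(bp + 100) over the 12133 bins, and 0 of the 54 bins tested inside the clusters and 0% of all bins had a Benjamini-Hochberg adjusted p of 0.05 or less. At an unadjusted p of 0.05, 14 cluster bins were higher and 0 lower in transgenic libraries, beside 862 higher and 322 lower among all bins. The proximal bin chr2:36700001-36800000 had 30527, 24161, 20825 and 20930 bp in the transgenic libraries, against 14203, 15427, 14152 and 15960 bp in the controls. The groups were apart there, with a log2 difference of 0.61 ± 0.17 (SE) and a limma adjusted p of 0.35. It passed when transgenic library 1 was left out, with a log2 difference of 0.44, in a setting that called 65 of all 11907 bins. The bin chr2:36500001-36600000 had a log2 difference of 0.55 ± 0.15 and chr2:36300001-36400000 one of 0.58 ± 0.16 (limma adjusted p = 0.345 and 0.353), again with every transgenic library above every control. The smallest p was that of a middle bin, chr2:90200001-90300000, with 466, 400, 899 and 233 bp in the transgenic libraries and 0 in all controls (limma adjusted p = 0.3). That bin passed the filter of 4 libraries through the transgenic group alone, so its rank by p is only a description. Of the tested cluster bins, 48 had a log2 difference above 0 and 6 one below. The 4 of these 6 with the smallest p were middle bins, from chr2:87800001-87900000 with a log2 difference of -1.09 ± 0.78 to chr2:89800001-89900000 with -0.20 ± 0.79 (limma adjusted p = 0.772 and 0.972). Between them lay chr2:85700001-85800000 at -0.85 and chr2:86400001-86500000 at -0.33. All 4 had groups that overlapped.

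The proximal coverage was made of many modest peaks. The cluster held 506, 435, 379 and 375 peaks in the transgenic libraries, against 301, 318, 272 and 330 in the controls, so the groups were apart. Their median width was 311 to 359 bp in transgenic libraries and 296 to 316 bp in controls. Their median fold enrichment, the authors' own value at each summit, was 4.74 to 5.05 in transgenic and 4.6 to 5.14 in control lists, which is the 32nd to 40.5th percentile of the transgenic lists and the 25.7th to 41.1st of the control lists. The highest fold in the cluster was 10.1 to 11.7 in transgenic and 9.62 to 11.2 in control lists, against list maxima of 55.8 to 82. The middle cluster, 5071 kb long, held 64, 226, 97 and 41 peaks in the transgenic libraries, against 46, 37, 48 and 45 in the controls. Transgenic library 2 alone stood far above the rest.

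Peak positions recurred from library to library in the proximal cluster. Of its 430 regions covered in 2 or more libraries, 86 (20%) were found in all 8, which was so for 2 of 99 regions in the middle and 0 of 5 in the distal cluster. Over the whole genome the share was 32.1% of 72683. The bases covered in both libraries of a pair made up 36.8% of those covered in either among the 6 transgenic pairs, 29.1% among the 16 mixed pairs and 26.7% among the 6 control pairs, and the lowest transgenic pair, 34.1%, lay above the highest mixed pair, 31%. In the middle cluster this share was 7.61% among transgenic, 6.32% among mixed and 6.85% among control pairs. The pairs share libraries, so these shares are a description. They were not corrected for the covered length, which was larger in the transgenic libraries and far smaller in the middle cluster.

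Transgenic libraries lay wholly above the controls at 31 of the 430 proximal regions, and wholly below at 0. Among all 72683 regions, 2368 (3.26%) were wholly above and 123 wholly below. In 6 proximal regions all 4 transgenic libraries and no control had a peak, and the reverse was found in 0. Over the whole genome these counts were 288 and 13 of 72683 regions, so a lean to the transgenic libraries was not confined to this cluster. Regions called by limma as wider in transgenic libraries numbered 0 of the 534 in the clusters, beside 33 of all regions (0.0454%), and at an unadjusted p of 0.05 the clusters had 56 higher and 2 lower ones, beside 3269 higher and 1316 lower among all regions. The widest region, chr2:37162588-37170284, 22621 bp from Olfr365, had 5966, 5266, 4933 and 4803 bp in the transgenic libraries, against 1588, 2907, 3601 and 2449 bp in the controls. The groups were apart there, with a log2 difference of 0.91 ± 0.24 (SE) and a limma adjusted p of 0.546. It was singled out for its width after its values were seen.

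The 4 regions with the smallest p among those wider in transgenic libraries lay in the proximal cluster, outside gene bodies. The region chr2:37047765-37049748, 18559 bp from Olfr360, had 1067, 1264, 1230 and 721 bp in the transgenic libraries, against 0, 442, 0 and 438 bp in the controls (log2 difference 2.20 ± 0.53 SE, limma adjusted p = 0.21). The region chr2:36702223-36706572, 13290 bp from Olfr346, had 3491, 2820, 2878 and 2240 bp in the transgenic libraries, against 1447, 1805, 2009 and 1884 bp in the controls (log2 difference 0.54 ± 0.12 SE, limma adjusted p = 0.241). In both, every transgenic library was above every control. The region near Olfr346 passed without transgenic library 4, with a log2 difference of 0.65, in a setting that called 24 of all 66555 regions. The region chr2:36939560-36941102, 1492 bp from Olfr356, had 1373, 1119, 1303 and 1270 bp in the transgenic libraries, against 371, 975, 636 and 593 bp in the controls (limma adjusted p = 0.242). The region chr2:37035532-37036764, 29920 bp from Olfr358, had 834, 270, 553 and 676 bp in the transgenic libraries and 0 in all controls (limma adjusted p = 0.263). This last region passed the filter of 2 libraries through the transgenic group alone, so its rank by p is only a description. In the other direction, chr2:36648422-36649882 near Olfr345 had 823, 0, 426 and 458 bp in the transgenic libraries, against 603, 865, 764 and 1289 bp in the controls, and the groups overlapped (log2 difference -1.33 ± 0.59 SE, limma adjusted p = 0.702). The next 3 were chr2:37095959-37096754 with a log2 difference of -1.39, chr2:36412899-36413322 with -1.11 and chr2:36830867-36831184 with -1.02, all with overlapping groups and the same adjusted p.

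Coverage was counted gene by gene in the 2 kb on each side of the better covered gene end, a window of 4001 bp. Of the 287 genes, 14 had a peak there in all 8 libraries, 27 in at least 4, and 221 in none. All 14 belong to the proximal cluster, as do 26 of the 27, and Olfr1241 of the middle cluster is the remaining one. Genes with a peak numbered 29, 53, 33 and 29 in the transgenic libraries, against 25, 26, 24 and 24 in the controls. The excess of transgenic library 2 lay in the middle cluster, where it had 28 such genes, against 3 to 8 in the other transgenic libraries and 0 to 3 in the controls. Among the 28 proximal genes, 26, 25, 25 and 26 had a peak in the transgenic libraries and 23, 26, 21 and 22 in the controls, so those groups overlapped. The mean over the proximal genes was 1057, 941, 773 and 643 bp in the transgenic libraries, against 641, 624, 403 and 434 bp in the controls. Transgenic library 4 lay 2 bp above control library 1, so the groups were apart by almost nothing.

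**Figure D3:**
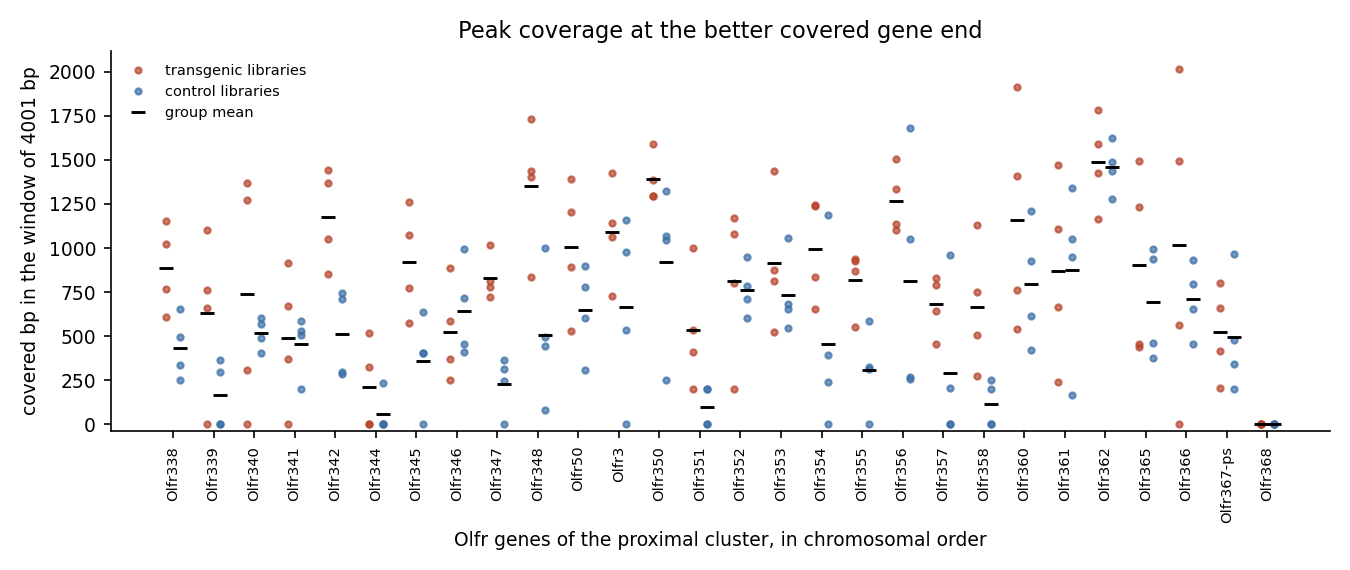
Covered bp in the window of 4001 bp at the better covered end (y axis) of the 28 proximal genes in chromosomal order (x axis). Points are libraries, transgenic left and control right at each gene, and dashes are the group means of 4. Points of both groups mix at most genes; they are apart at Olfr342, Olfr347 and Olfr358, and Olfr368, the last gene, is at 0 throughout.

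The groups did not overlap at 4 of the 287 genes, all higher in transgenic libraries: Olfr342, Olfr347, Olfr358 and Olfr1241. That is 1.39%, near the background of 1.26% of all protein-coding genes. Genes with no peak in any library cannot have groups apart. They make up 77% of the chromosome 2 Olfr genes and 26.5% of all genes, so these shares cannot be compared directly. The count was 8 (2.79%) without transgenic library 4, where 2.28% of all genes had groups apart in this direction. It was 7 (2.44%) without control library 1, beside 1.78% of all genes, and 7 without control library 3, beside 2.13%. limma called 0 of the 27 genes with a peak in at least 4 libraries, and 0% of all 14753 such genes, at an adjusted p of 0.05. At an unadjusted p of 0.05, 10 of the 27 were higher and 0 lower, where 2.8% of all tested genes were higher. Of the 26 proximal genes tested, 20 had a log2 difference above 0, 5 had one below, and Olfr362 was at 0.00 after rounding. A gene covered in 1 group alone can pass the filter of 4 libraries through that group.

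Olfr342 had 1443, 1369, 1051 and 850 bp in the transgenic libraries, against 745, 713, 296 and 287 bp in the controls. The groups were apart, with a log2 difference of 1.12 ± 0.33 (SE) and a limma adjusted p of 0.951. Olfr347 had 722, 780, 1017 and 811 bp in the transgenic libraries, against 243, 314, 0 and 364 bp in the controls (log2 difference 1.68 ± 0.46 SE, limma adjusted p = 0.841). Olfr358 had 1129, 273, 749 and 505 bp in the transgenic libraries, against 0, 200, 0 and 250 bp in the controls (log2 difference 1.93 ± 0.58 SE, limma adjusted p = 0.982). At both genes the lowest transgenic library was above the highest control, by a wide gap at Olfr347 and a narrow one at Olfr358. Olfr1241 had 419, 472, 491 and 483 bp in the transgenic libraries, against 0, 0, 0 and 285 bp in the controls (log2 difference 1.99 ± 0.55 SE, limma adjusted p = 0.841). Its peaks lay at the annotated end of the gene, and the window at its start was at 0 in all 8 libraries. Olfr338, the first gene of the cluster, had 1025, 1154, 766 and 611 bp in the transgenic libraries, against 249, 495, 652 and 337 bp in the controls, with an overlap of the lowest transgenic and the highest control library (log2 difference 0.90 ± 0.30 SE, limma adjusted p = 1).

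The 5 genes that leaned lower were Olfr346, Olfr341, Olfr352, Olfr340 and Olfr366, and none had groups apart. Olfr346 had 886, 371, 583 and 248 bp in the transgenic libraries, against 993, 409, 716 and 456 bp in the controls (log2 difference -0.32 ± 0.40 SE, limma adjusted p = 1). The other 4 had log2 differences of -0.29 (Olfr341), -0.12 (Olfr352), -0.21 (Olfr340) and -0.22 (Olfr366), although their transgenic means were the higher ones, since 1 transgenic library was at 0 or 200 bp and weighs more on the log scale. Olfr366 shows this: it had 1492, 2019, 0 and 562 bp in the transgenic libraries, against 794, 932, 453 and 656 bp in the controls. Without transgenic library 3 its log2 difference was 0.72, those of Olfr341 and Olfr352 were 0.43 and 0.36, and without transgenic library 4 that of Olfr340 was 0.62.

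None of the 8 most covered genes had groups apart. Olfr362, the most covered of the chromosome 2 Olfr genes, had 1783, 1426, 1591 and 1164 bp in the transgenic libraries, against 1281, 1437, 1626 and 1487 bp in the controls. The means were 1491 ± 262 bp in transgenic libraries and 1458 ± 142 bp in controls (SD, n = 4 each), with an SE of 0.14 on the log2 difference of -0.00, the smallest SE among the chromosome 2 Olfr genes tested. Olfr350 had 1386, 1593, 1297 and 1298 bp in the transgenic libraries, against 1070, 1323, 252 and 1043 bp in the controls, and the groups overlapped by 1 control library. Olfr356 averaged 1269 ± 187 bp in transgenic libraries and 814 ± 687 bp in controls, and Olfr360 averaged 1157 ± 625 bp in transgenic libraries and 793 ± 349 bp in controls (SD, n = 4 each). Olfr348 had 1435, 1732, 1405 and 834 bp in the transgenic libraries, against 1000, 493, 80 and 443 bp in the controls. Only control library 1 reached into the transgenic range there. Olfr3 averaged 1090 ± 286 bp in transgenic libraries and 667 ± 516 bp in controls, Olfr361 871 ± 534 bp in transgenic libraries and 876 ± 502 bp in controls, and Olfr366 1018 ± 908 bp in transgenic libraries and 709 ± 204 bp in controls, all with overlap. These levels were used to rank the genes and carry no test.

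At the edge of the filter, the least covered genes that passed were Olfr351, with a mean of 318 bp over the 8 libraries, and Olfr1241, with 269 bp. The most covered that did not pass were Olfr344, with 135 bp and a peak in 3 libraries, and Olfr1193, with 88.9 bp and a peak in 2. Olfr351 had 999, 409, 535 and 200 bp in the transgenic libraries, against 200, 200, 0 and 0 bp in the controls. Olfr344 had 0, 0, 325 and 519 bp in the transgenic libraries, against 0, 236, 0 and 0 bp in the controls. Olfr1193 had 0, 403, 0 and 308 bp in the transgenic libraries and 0 in all controls.

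Within the proximal cluster the peaks favoured the body of the genes over the stretch before their start. Peaks covered 33.7 ± 6.99% of the bases of the Olfr gene bodies in transgenic and 23.2 ± 4.7% in control libraries (SD, n = 4 each), where gene bodies make up 4.76% of the cluster. The surroundings of 2 kb around the genes were covered to 12.3 ± 2.63% in transgenic and 6.28 ± 1.36% in control libraries, and the remaining 82.4% of the cluster to 18.5 ± 3.74% in transgenic and 11.8 ± 0.975% in control libraries. The 5 Olfr pseudogenes, 0.373% of the cluster, were covered to 31.2 ± 11.6% in transgenic and 14.9 ± 3% in control libraries. In steps of 250 bp around the annotated start of 27 proximal genes, coverage was low just before the gene and highest inside it. From 250 bp before to the start, it was 11.4, 11.8, 6.15 and 8.98% in the transgenic libraries, against 7.63, 9.32, 1.97 and 3.42% in the controls. From 500 to 750 bp after the start it was 61.4, 46.7, 49.6 and 44.7% in the transgenic libraries, against 43.9, 42.8, 25.3 and 22.7% in the controls, and the groups were apart by less than 1 percentage point. From 1000 to 1250 bp, beyond the end of most Olfr genes of chromosome 2, whose median span is 945 bp, coverage was 7.92% in transgenic and 8.3% in control libraries.

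**Figure D4:**
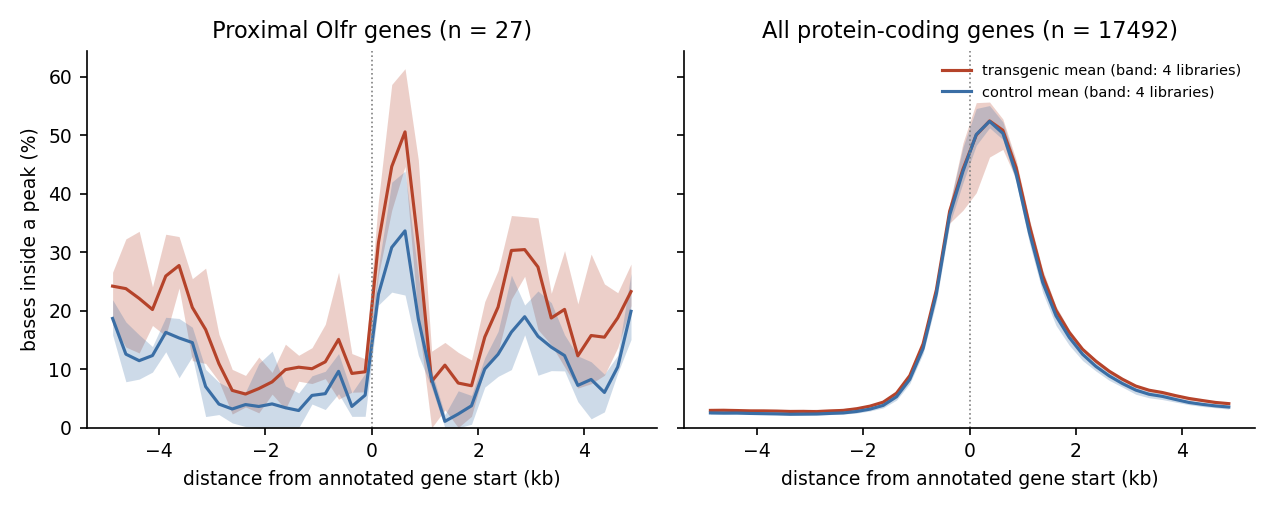
Share of bases inside a peak in percent (y axis) against the distance in kb from the annotated gene start (x axis), for 27 proximal Olfr genes (left) and 17492 protein-coding genes (right). Lines are means and bands the range of 4 libraries per group, transgenic and control. The proximal genes show a hump over the gene body, 50.6% in transgenic and 33.7% in control libraries at 500 to 750 bp, and little just before the start. Farther out their coverage rises again, with 24.2% in transgenic and 18.7% in control libraries from 5000 to 4750 bp before it. Over all genes the peak spans the start and the groups overlap there.

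Over all protein-coding genes the coverage spanned the start. It was 44.2% in transgenic and 43.8% in control libraries in the 250 bp before the start, and 50.9% in transgenic and 50.4% in control libraries from 500 to 750 bp after it. Farther out the groups were apart: from 5000 to 4750 bp before the start it was 2.82 to 3.32% in transgenic and 2.35 to 2.68% in control libraries. Of the 27 proximal windows of 300 bases, of which 3 are shown above, 0 touched a peak in all 8 libraries, 8 did so in at least 4, and 4 in none. The window of Olfr362 held 95, 0, 138 and 47 covered bp in the transgenic libraries, against 153, 115, 79 and 0 bp in the controls, and thus no common peak. That of Olfr347 held 85, 0, 0 and 126 bp in the transgenic libraries and 0 in all controls, although the window of 4001 bp at its other end was covered in 7 libraries. The better covered end was the annotated end of 20 of the 27 proximal genes with any peak and the annotated start of 6, with the strand of Olfr50 not given.

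In the middle cluster, 183 of the 222 genes had no peak in any library, 32 had one in a single library, 6 in 2 libraries, and Olfr1241 in 5. Of the 32, 22 had it in transgenic library 2. The mean over the 222 genes was 4.65, 36.4, 10.6 and 4.46 bp in the transgenic libraries, against 1.85, 0, 2.88 and 2.18 bp in the controls. These ranges did not overlap, but apart from transgenic library 2 the means stand for a handful of peaks. The cluster also holds 71 Olfr pseudogenes and 3 other protein-coding genes, Fads2b, Pramel7 and Pramel6. Its most covered region, chr2:89385636-89388753, lay 11990 bp from the nearest gene, Olfr1234, and had 1191, 2692, 1717 and 1207 bp in the transgenic libraries, against 1184, 1359, 1399 and 2146 bp in the controls. It was 1 of 2 middle regions found in all 8 libraries, it was singled out after its values were seen, and its groups overlapped (log2 difference 0.00 ± 0.28 SE, limma adjusted p = 1).

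The distal cluster, of 926.2 kb, had no peak over or within 2 kb of any of its 37 genes, and none over its 9 pseudogenes, in any library. Its 3, 15, 12 and 2 peaks in the transgenic libraries and 4, 0, 3 and 2 in the controls all lay in the rest of the cluster. None of them was wider than 404 bp, and 4 of the 5 regions found in more than 1 library were found in 2 only. The windows of 30 distal starts, Olfr1275 shown above among them, held no covered base in any library, as did 185 of 186 middle windows.

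Set among the Olfr clusters of all autosomes, the proximal cluster was the most covered. By mean over the 8 libraries it ranked 1, the middle cluster 19 and the distal cluster 25 among 29 clusters of at least 5 genes, whose median was 831 bp per 100 kb. The next were a cluster on chromosome 9 (Olfr24 to Olfr18) with 16132 bp in transgenic libraries and 9438 bp in controls, and one on chromosome 17 (Olfr90 to Olfr136) with 16520 bp in transgenic libraries and 8684 bp in controls. In 8 of the 29 clusters the transgenic libraries lay wholly above the controls and in 0 wholly below, so the proximal cluster shares its direction with 7 others. Coverage summed over all autosomes was apart in the same direction, as were 6.25% of the tested 100-kb bins. The clusters differ from these bins in length, so the shares cannot be compared directly. Of the 823 Olfr genes on other chromosomes, 61 (7.41%) had a peak in all 8 libraries and 22 (2.67%) had groups apart with the transgenic libraries higher. On chromosome 2 these shares were 4.88% and 1.39%, and among all protein-coding genes 61.9% and 1.26%. The shares count genes with no peak in any library, which cannot have groups apart. Such genes were 53.6% of the Olfr genes on other chromosomes, 77% on chromosome 2 and 26.5% of all genes.

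**Figure D5:**
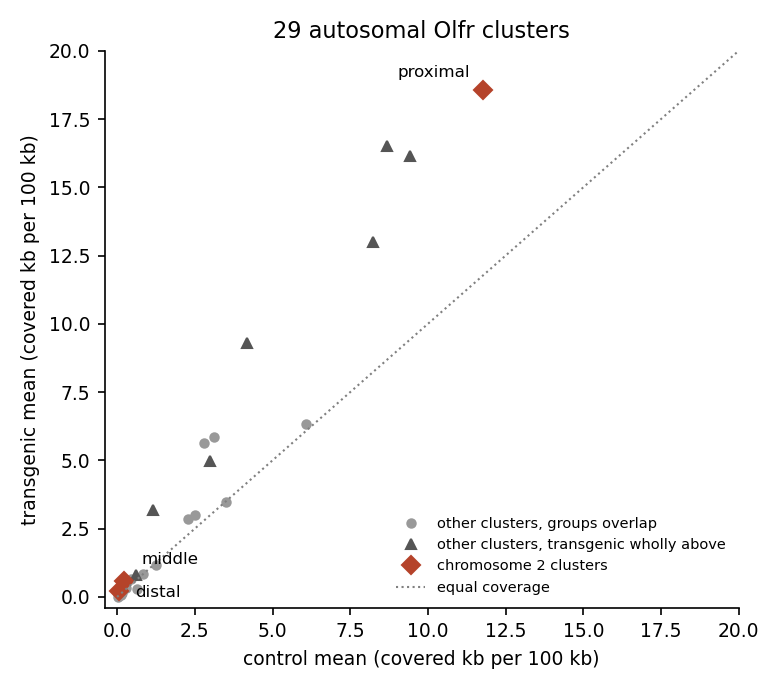
Mean covered kb per 100 kb in transgenic libraries (y axis) against control libraries (x axis) for the 29 autosomal clusters of at least 5 Olfr genes. Diamonds are the chromosome 2 clusters, triangles other clusters whose transgenic libraries lie wholly above the controls, and circles the rest, with the dotted line at equal coverage. The proximal cluster, with 18570 bp in transgenic libraries and 11773 bp in controls, is farthest out, and the middle and distal clusters sit near the origin.

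The genes that serve olfactory receptors in the nose were marked in part, and none was called as different between the groups. Of 19 olfactory signalling genes, 13 had a peak in all 8 libraries and 4 in none, and limma called 0 of the 14 tested. Gnal, the G protein alpha subunit coupled to olfactory receptors, averaged 1688 ± 364 bp in transgenic libraries and 1631 ± 181 bp in controls, and Adcy3, the adenylyl cyclase it activates, 2031 ± 252 bp in transgenic libraries and 2089 ± 68.4 bp in controls (SD, n = 4 each). Both are also used by neurons of the brain. Ric8b is a chaperone of that G protein. It had 2395, 2288, 2213 and 2045 bp in the transgenic libraries, against 1840, 1984, 1983 and 2025 bp in the controls. It was the only gene of the list whose transgenic libraries were wholly higher, with 2045 bp at the lowest against 2025 bp. Among all protein-coding genes 1.26% had groups apart in this direction, and the log2 difference of Ric8b was 0.16 ± 0.08 (SE). Omp, the olfactory marker protein, Stoml3, a stomatin-like protein of olfactory cilia, Cngb1, a subunit of the olfactory cyclic nucleotide-gated channel, and Rtp1, a chaperone that brings receptors to the cell surface, had no peak in any library. Other genes of the list went the other way: Cnga4 and Gng13 had a peak in all 8 libraries, with means of 1712 and 1520 bp. Cnga2 had one in 4 libraries. Of 13 genes known for the control of receptor choice, 10 were marked in all 8 libraries, and limma called 0 of the 11 tested. Lhx2, a homeodomain factor that lies on chromosome 2 as well, averaged 2293 ± 355 bp in transgenic libraries and 2480 ± 46.7 bp in controls, and Ebf3, a partner of it at receptor enhancers, was at 0 in all.

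Markers of the labelled cell type were marked. All 4 neuronal and 4 of 5 CA1 pyramidal markers had a peak in all 8 libraries, with summed levels of 9051 to 9868 bp in transgenic libraries and 9258 to 9350 bp in controls for the neuronal list and 10361 to 12915 bp in transgenic libraries and 10982 to 12083 bp in controls for the CA1 list. Of 5 markers of olfactory sensory neurons, only Gap43 and Gng13, which brain neurons use too, had a peak in all 8, and the summed level was 3713 to 4272 bp in transgenic libraries and 3741 to 4151 bp in controls. Omp and Stoml3 were at 0. Cnga2 had 732, 0, 0 and 544 bp in the transgenic libraries, against 0, 400, 200 and 0 bp in the controls. Gap43, a growth cone protein, was slightly lower in every transgenic library than in any control. It had 2174 ± 48.7 bp in transgenic libraries and 2243 ± 7.23 bp in controls, with a log2 difference of -0.06 ± 0.05 (SE). Among all protein-coding genes 0.324% had transgenic libraries wholly below the controls. The microglial list summed to 0 in all transgenic libraries and to at most 200 bp in controls. Astrocyte, oligodendrocyte and endothelial lists had 2, 1 and 2 of 5 genes marked in all 8 libraries, with summed levels of 2595 to 3345, 2315 to 2904 and 1332 to 3411 bp in transgenic libraries and 2527 to 3166, 2156 to 2365 and 2452 to 3428 bp in controls. limma called no tested gene of these lists, and the part of other cells in the coverage of the Olfr clusters was not tested.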

How the data were processed

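Peak lists of 8 H3K4me3 libraries were used, 4 transgenic and 4 control, grouped by their titles; the 2 samples called input were not analysed here. The submitters' processing notes name build mm10 and, among the tools, MACS2, limma, DiffBind, deepTools 3.0.1, Bowtie2 2.0.2, SAMtools 1.3.1 and FastQC 0.11.5, with no role or setting. The authors deposited 1 headerless list per library with peak positions, a fold enrichment (a ratio) per summit, a p-value and a q-value, both as −log10. More reads or a cleaner precipitation can raise both the number and the width of peaks in a list, and the depth is unknown.

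From the deposited positions, covered bp were computed in windows of 2 kb on each side of the better covered end of each protein-coding gene, in 100-kb bins, in merged regions of all 8 lists, and per cluster. Values were log2-transformed after adding 100 bp and centred per library on the median of features covered in all libraries. Features with a peak in at least 4 libraries (regions, at least 2) were tested with limma 3.58.1 in R 4.3.3 (trend and robust variance), which was tested on simulated data first, and p-values were adjusted by Benjamini-Hochberg over all features. Cluster densities carry no test. Other steps used Python 3.11.15, pandas 2.3.3 and numpy 2.4.6.

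The members and lists were chosen with earlier results of these data known. Genes named are the 8 with the largest mean, for each direction the 5 of smallest p, the most covered of each cluster, and 2 on either side of the filter; the distal cluster gave none. For regions and bins these are, for each direction, the 4 of smallest p. Alternatives covered peak ranking, q-value, window, filter, scaling, variance and left-out libraries; those using X chromosome peaks or autosomal ranking were chosen after seeing the data.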

Additional observations from a re-analysis of the deposited data

Results flagged for a closer look

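In all, 58 groups of 4 libraries were examined (densities, peak numbers and genes with a peak per cluster, and the named genes). Of these, 2 had a library flagged as far from the other 3. For normally distributed values chance alone flags about 1 in 20 groups. In both flagged groups the other 3 libraries were at 0, where any covered length is flagged, so that rate does not apply to them. Control library 4 had 285 bp covered at Olfr1241, where the other controls had 0. Control library 2 had 236 bp covered at Olfr344, where the other controls had 0.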

How the results depend on the processing

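limma called 0 of the chromosome 2 Olfr genes under every alternative run, and the number with a peak in at least 4 libraries, 27, ranged from 25 to 32. The proximal difference, transgenic minus control, of 6797 bp per 100 kb was 3606 bp with equal numbers of top-ranked peaks and ranged from 5083 to 7863 bp when each library was left out. The middle and distal differences, 359 and 162 bp, ranged from 130 to 487 bp and from 104 to 221 bp in the same way. With equal numbers of top-ranked peaks they were 140 and 45.3 bp. Among libraries with many X chromosome peaks they were 51.1 and 24.2 bp, and among those with few 666 and 300 bp. The count of genes with all transgenic libraries above the controls, 4, was 2 with windows of 1 kb or at the annotated start, 9 with windows of 5 kb, and 4 to 8 with each library left out; the cause was not tested. Called regions in the clusters numbered 0 to 1, and called bins 0 to 1, with each library left out. The 1 region was called without transgenic library 4, beside 24 of all 66555 regions. The 1 bin was called without transgenic library 1, beside 65 of all 11907 bins. limma without centring called 1 region in the clusters, beside 118 of all 72683. Without trend and robust variance it called 6 there, beside 296 of all regions. Without centring the median log2 difference of all regions was 0.13, against 0.03 with it.

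Directions turned at 6 genes and 2 bins, none of which was called. Equal numbers of peaks gave Olfr338 a log2 difference of -0.03. Windows of 5 kb gave Olfr346 0.51, Olfr341 0.43, Olfr352 0.21, Olfr340 0.16 and Olfr366 0.77. The annotated start gave Olfr340 0.12 and Olfr366 0.19, windows of 1 kb gave Olfr340 0.10, and −log10 q of at least 3 gave Olfr340 0.24. With each library left out, Olfr341 ranged from -0.74 to 0.43, Olfr352 from -0.34 to 0.36, Olfr340 from -0.70 to 0.62, Olfr366 from -0.76 to 0.72, the bin chr2:86400001-86500000 from -0.78 to 0.04, and chr2:89800001-89900000 from -0.70 to 0.18. Regions redrawn from ranked or q-filtered peaks have other bounds and gave no value for the named regions.

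Samples with the same replicate number had correlations of -0.063, -0.129, -0.162 and 0.166, so the numbers do not pair the libraries, and no more than 1 of 4 correlated best with its own number. With the replicate number as a block, limma called 0 genes, 0 regions and 0 bins in the clusters; over the genome it called 0 regions, against 35 without the block, and 3 bins, against 0. The lists hold no read counts, so a bare stretch is one with no peak at this depth.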

Other observations

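By Pearson correlation of log2(bp + 100) over the 8 libraries, the 2 protein-coding genes whose coverage was most like that of Olfr362 among 16078 genes were Klra1 (0.953), a killer cell lectin-like receptor gene, and Pcdhga5 (0.942), a clustered protocadherin gene. These are the highest of many comparisons over few libraries and are given as a description.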
